A study of Mus musculus with 6 samples.

Results

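The genes described here encode the MHC class I molecules and the machinery that loads them with peptide: the heavy chains H2-K1, H2-D1, H2-Q7 and H2-T23, the light chain B2m, the peptide transporter subunits Tap1 and Tap2, the loading factor Tapbp, and the immunoproteasome subunits Psmb8 and Psmb9. These 10 genes were chosen by symbol and function, with earlier results of these data known. All 10 were found among the 24054 gene rows of the table. Poly(A) RNA of the substantia nigra (SN) was compared between 3 MitoPark mice and 3 littermate controls, on a C57BL/6 background, untreated and 16 to 17 weeks old by the labels. MitoParks carry Dat+/Cre: Tfam LoxP/LoxP. Cre is expressed from the dopamine transporter locus, so by design Tfam, which encodes mitochondrial transcription factor A, is deleted only in cells that use this locus, and not in the microglia, endothelium or astrocytes of the same tissue. The methods give the controls as Tfam+/LoxP: Dat+/+ mice from MitoPark or parental litters, so they lack Cre and both groups carry at least 1 LoxP allele of Tfam. The labels name the tissue only as brain, and the SN comes from the methods.

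MHC class I molecules show fragments of a cell's own proteins to CD8 T cells and to receptors of natural killer cells. Proteasomes cut proteins into peptides, Tap1 and Tap2 together pump these into the endoplasmic reticulum, Tapbp (tapasin) holds an empty heavy chain next to the pump, and the complete complex of heavy chain, B2m and peptide then travels to the cell surface. Interferons raise most of these genes in many cell types, in part through NF-kB, interferon regulatory factors and the coactivator Nlrc5. In the healthy brain, microglia and endothelium are known to express class I more than neurons do.

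The stretch before the start of transcription is shown for the 5 members on which the results turn, because the classical class I genes are known for a shared array of regulatory motifs there. Each sequence gives the 200 bases before the RefSeq start site in GRCm38.p6, 5′ to 3′ on the strand of the gene. H2-K1 has 2 start sites there, and its window lies before the more upstream one. Capitals mark matches on either strand to GGGATTCCC (a kappa B motif, part of the class I enhancer), GAANNGAAA (an interferon response element), TGACG (a core of the X2 box) and CCAAT, and no match overlapped another in these windows. The windows lie at chr17:34000348-34000547 on the minus strand for H2-K1, chr17:35262894-35263093 on the plus strand for H2-D1, chr17:35438955-35439154 on the plus strand for H2-Q7, chr2:122147487-122147686 on the plus strand for B2m and chr17:34187356-34187555 on the plus strand for Tap1.
H2-K1: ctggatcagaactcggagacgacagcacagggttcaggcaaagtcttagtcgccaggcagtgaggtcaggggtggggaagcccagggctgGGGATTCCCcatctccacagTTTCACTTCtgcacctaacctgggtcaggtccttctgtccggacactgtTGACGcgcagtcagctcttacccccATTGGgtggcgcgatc
H2-D1: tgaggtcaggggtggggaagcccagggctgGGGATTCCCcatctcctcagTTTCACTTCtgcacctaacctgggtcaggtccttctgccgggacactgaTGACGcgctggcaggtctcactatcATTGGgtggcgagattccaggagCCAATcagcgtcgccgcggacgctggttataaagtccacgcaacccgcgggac
H2-Q7: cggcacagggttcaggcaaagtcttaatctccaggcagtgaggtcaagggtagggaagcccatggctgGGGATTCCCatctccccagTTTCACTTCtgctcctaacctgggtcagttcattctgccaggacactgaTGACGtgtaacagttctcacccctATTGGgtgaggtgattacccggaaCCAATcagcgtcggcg
B2m: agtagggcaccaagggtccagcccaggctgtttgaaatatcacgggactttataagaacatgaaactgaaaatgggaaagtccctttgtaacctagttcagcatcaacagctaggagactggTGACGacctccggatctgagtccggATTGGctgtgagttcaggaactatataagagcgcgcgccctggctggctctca
Tap1: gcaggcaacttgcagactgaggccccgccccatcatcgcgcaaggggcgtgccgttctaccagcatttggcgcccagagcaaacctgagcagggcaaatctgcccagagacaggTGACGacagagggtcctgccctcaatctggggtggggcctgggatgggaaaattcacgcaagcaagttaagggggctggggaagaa

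A promoter window was found for 9 of the 10 members, all except Tap2. The kappa B motif was present in 3 of them, H2-K1, H2-D1 and H2-Q7, and in 0.213% of all 32851 promoter windows of the same length. The interferon element was present in the same 3 members and in 5.0% of all windows. TGACG was present in 6 members and in 15.7% of all windows, and CCAAT in 7 members and in 29.3% of all windows. The start sites of Tap1 and Psmb9 lie 226 bases apart on opposite strands, so both genes share 1 stretch of promoter. The TGACG matches of Tap1 and Psmb9 are the same bases of this stretch, counted for each gene. The motifs were chosen with these sequences in view, so the shares are no test of the members. H2-K1, H2-D1 and H2-Q7 are paralogs with similar letters around their matches, so these matches are not independent. A match is a description of letters and shows no binding.

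The expected counts summed to between 8140777 and 10528602 per mouse, and 3 counts, taken as the floor of detection, corresponded to 0.285 to 0.369 CPM (counts scaled to a common library size). Tfam, the deleted gene, measured 40.3 to 45.5 CPM in littermate controls and 32.7 to 33.2 CPM in MitoParks, a log2 fold change of -0.40 (SE 0.11, p = 0.00565 and adjusted p = 0.999 by edgeR, exact permutation p = 0.1). All 11 dopaminergic neuron markers were lower in MitoParks, with a median log2 difference of -0.67. Of these, Slc6a3, the dopamine transporter, and Foxa1 were past both cutoffs of the comparison (unadjusted p below 0.05, more than 1.5-fold), Slc6a3 at 65.3 to 383 CPM in controls and 13.3 to 51.1 CPM in MitoParks, and Th, the rate-limiting enzyme of dopamine synthesis, had 47.4 to 159 CPM in controls and 39.0 to 65.5 CPM in MitoParks. Control 3 stood apart here, since its summed level was 1700 CPM, against 553 and 655 CPM in the other controls and 362 to 681 CPM in MitoParks. In whole tissue, fewer cells of a type and less RNA per cell cannot be told apart. Slc6a3 is also the locus that carries Cre in the MitoParks, and the part of this allele in its level was not tested.

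Of the 10 members, 9 had a higher fitted level in MitoParks, beside 48.6% of the 14568 genes tested, and most of these differences were within the spread between mice. The median log2 fold change of the members was 0.22, against -0.005 over all genes. It was also 0.22 with the controls of H2-Q7 set to a floor of 3 counts. H2-K1 and H2-Q7 had an unadjusted p below 0.05, which was 2 of 10 members beside 1.11% of all genes. Only H2-Q7, 1 of 10, also differed by more than 1.5-fold and so was past both cutoffs, beside 0.577% of all genes. The study itself had named H2-Q7 among its top upregulated genes in this comparison. Its call was thus known when the members were chosen, and the shares that count H2-Q7 are no independent result. The groups did not overlap for 3 members, H2-K1, H2-Q7 and Tap1, beside 4.71% of all genes.

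No member had a Benjamini-Hochberg adjusted p below 0.05 in edgeR's quasi-likelihood test, and neither did any of the genes tested (0.0%), of which 161 had an unadjusted p below 0.05. DESeq2 and limma-voom also gave 0 genes with an adjusted p below 0.05, with 96 and 145 below 0.05 unadjusted. The adjusted p was 0.999 for each of the 10 members. H2-Q7 and Psmb9 reached the filter, a mean of more than 1 CPM in at least 1 group, only through the MitoParks. Among the 8 members that reached it in both groups, 7 were higher in MitoParks, 1 had an unadjusted p below 0.05, the groups of 2 did not overlap, and 0 were past both cutoffs. An exact permutation test over 3 against 3 mice cannot give a p below 0.1.

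**Figure D1:**
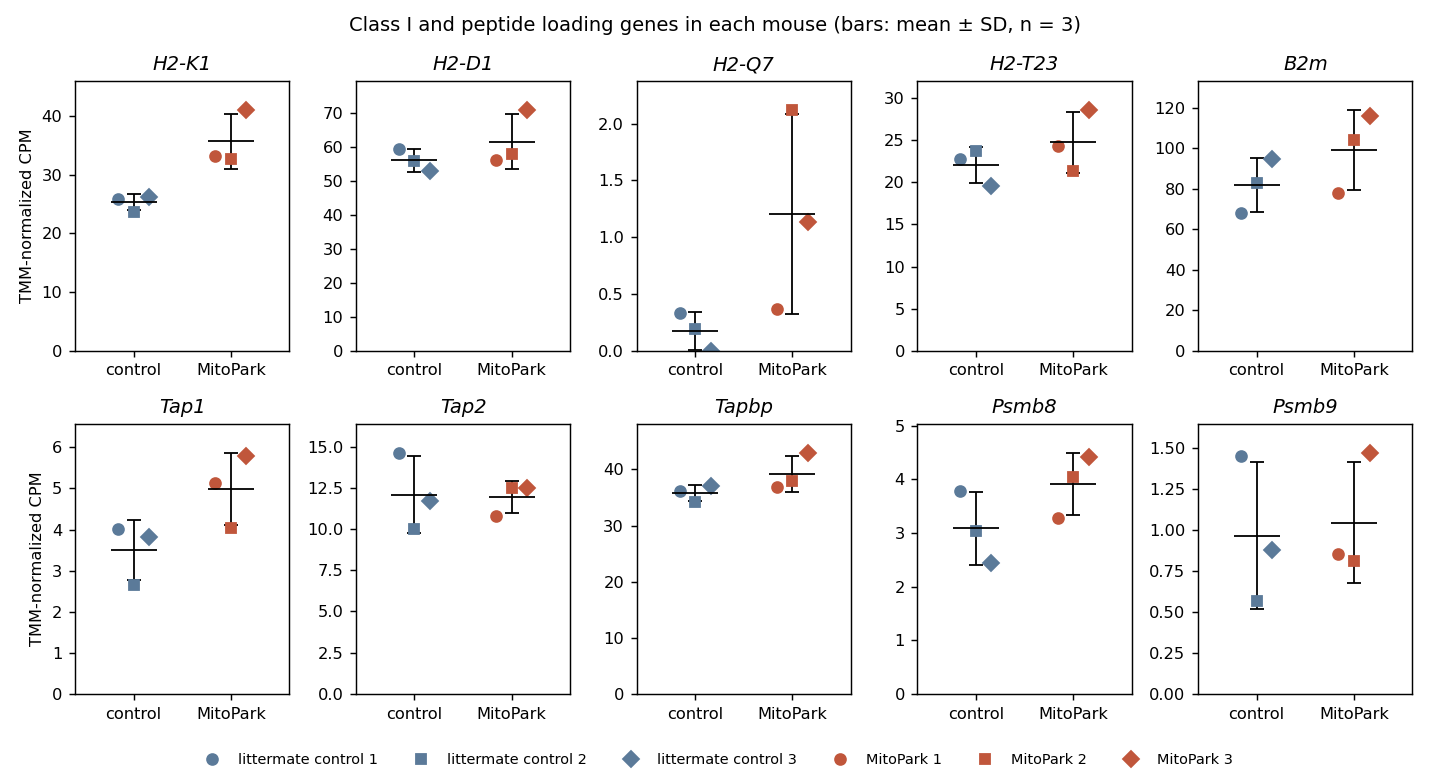
Level of each of the 10 members in each mouse, in TMM-normalized CPM on a linear axis from 0, with littermate controls in blue, MitoParks in red, and the mean ± SD of 3 mice in black. The 3 MitoParks sit above the 3 controls for H2-K1 (32.7 to 41.0 against 23.7 to 26.2 CPM), by narrow margins for Tap1 and H2-Q7, and the groups overlap for the other members.

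H2-K1 and H2-D1 encode the classical heavy chains, the ones that present peptides to most CD8 T cells. H2-K1 measured 25.9, 23.7 and 26.2 CPM in littermate controls 1, 2 and 3, and 33.2, 32.7 and 41.0 CPM in MitoParks 1, 2 and 3. Every MitoPark was above every control, and the lowest MitoPark exceeded the highest control by more than the range of the controls. The means were 25.3 ± 1.35 and 35.6 ± 4.71 CPM (SD, n = 3 each), a 1.41-fold difference with a log2 fold change of 0.49 (SE 0.13, p = 0.00405 by edgeR, exact permutation p = 0.1), which is under the 1.5-fold cutoff. When any 1 mouse was left out, the log2 fold change of H2-K1 lay between 0.38 and 0.56 and its unadjusted edgeR p stayed between 0.00477 and 0.0203.

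H2-D1 measured 59.6, 55.8 and 53.0 CPM in the controls and 56.1, 57.9 and 71.0 CPM in the MitoParks. MitoPark 3 alone lay above all controls, and the other MitoParks lay among them. The log2 fold change was 0.14 (SE 0.13, p = 0.3 by edgeR, exact permutation p = 0.4). Summing H2-K1, H2-D1 and their near relatives H2-K2 and H2-L into 1 row gave a log2 fold change of 0.25 (SE 0.12, p = 0.0613 by edgeR, exact permutation p = 0.1). H2-D1 is the largest part of this row. Of the 1470 windows of 150 bases in the H2-K1 transcript, 0 occur without a mismatch in a GENCODE M21 transcript of another gene. H2-L, which the H-2b haplotype of C57BL/6 mice is known to lack, was listed at 0 in all 6 mice.

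H2-Q7 encodes a Qa-2 antigen, a nonclassical heavy chain anchored to the membrane by a lipid. Its rounded expected counts were 3, 2 and 0 in the controls and 3, 21 and 10 in the MitoParks. MitoParks 2 and 3 stood clear of the controls, while MitoPark 1 had 0.366 CPM and control 1 had 0.334 CPM from 3 counts each. All controls were at or below the floor of 3 counts. The MitoPark mean of 1.21 ± 0.881 CPM (SD, n = 3) lay 3.97-fold above a control floor of 0.304 CPM (3 counts per library). MitoPark 1, also at the floor, kept its own value in this mean, so 3.97-fold is a lower bound on the control side only. The fitted log2 value was 2.78 (SE 0.87, p = 0.0105 by edgeR, exact permutation p = 0.1), and it depends on the prior count.

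The reads of H2-Q7 are also hard to assign. Of its 1374 windows of 150 bases in GENCODE M21, 133 (9.68%) occur without a mismatch in a transcript of another gene, 8.44% in H2-Q6 and 1.24% in H2-Q5. No transcript under the names H2-Q8 and H2-Q9, its other close relatives, was found in the GENCODE M21 transcripts, so sharing with them was not measured. H2-Q9 had 10, 14 and 5 counts in the controls and 10, 5 and 0 counts in the MitoParks, and H2-Q8 had 7 counts in control 1 and was at 0 in the other mice. Summed over H2-Q6, H2-Q7, H2-Q8 and H2-Q9, the counts were 20, 18 and 10 in the controls and 18, 34 and 18 in the MitoParks. The groups then overlapped, and the summed log2 fold change was 0.66 (SE 0.39, p = 0.122 by edgeR, exact permutation p = 0.3). H2-Q7 was not tested without MitoPark 2 or with a filter on the mean over all 6 mice, since it then fell below 1 CPM.

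**Figure D2:**
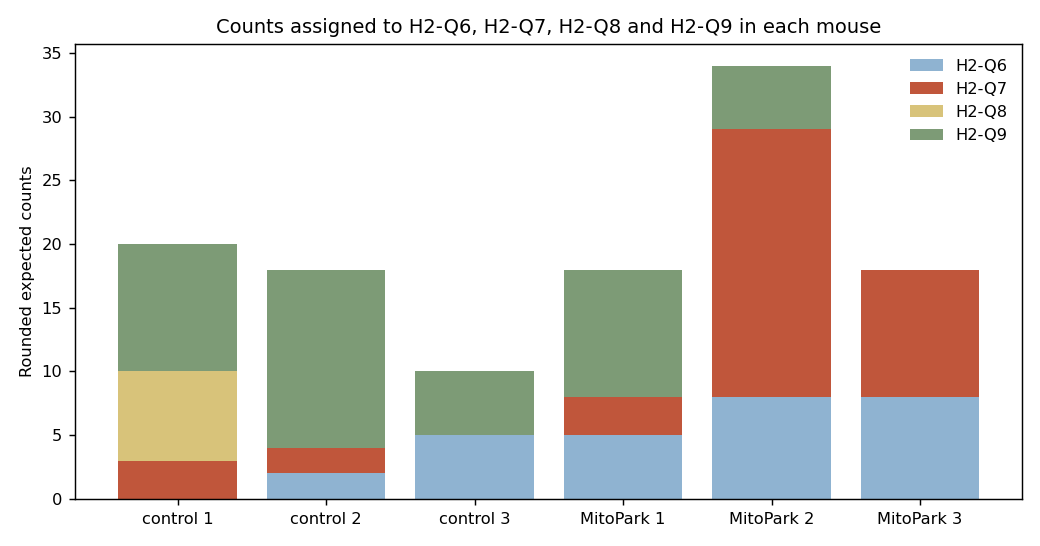
Rounded expected counts of H2-Q6, H2-Q7, H2-Q8 and H2-Q9 in each mouse, stacked. H2-Q7 takes 21 counts in MitoPark 2 and 10 in MitoPark 3 and 3 or fewer in the other mice, while the height of the whole stack is 10 to 20 in controls and 18 to 34 in MitoParks.

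H2-T23 encodes Qa-1, which presents leader peptides of other class I chains to the CD94/NKG2 receptors of natural killer cells. It measured 22.8, 23.7 and 19.6 CPM in the controls and 24.3, 21.4 and 28.6 CPM in the MitoParks. The groups overlapped, with a log2 fold change of 0.17 (SE 0.15, p = 0.279 by edgeR, exact permutation p = 0.4). Summed over the 4 heavy chain members, the level was 109, 103 and 98.8 CPM in the controls and 114, 114 and 142 CPM in the MitoParks.

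Of 30 other class I heavy chain genes, 28 were in the table, 8 of these were at 0 in every mouse, and 10 were tested. Among these 10, 9 were higher in MitoParks, beside 48.6% of all genes tested. Their median log2 fold change was 0.21, and 0 had an unadjusted p below 0.05. H2-Q4, another Q region gene, had 59.5, 49.6 and 52.3 CPM in the controls and 60.6, 47.5 and 111 CPM in the MitoParks, with a log2 fold change of 0.44 (p = 0.131 by edgeR, exact permutation p = 0.6). MitoPark 3 stood far above the other mice, and MitoParks 1 and 2 lay at or near the control values.

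H2-T24 had 6.68, 5.32 and 5.18 CPM in the controls and 7.19, 8.19 and 7.6 CPM in the MitoParks, with no overlap and a log2 fold change of 0.42 (p = 0.061 by edgeR, exact permutation p = 0.1). H2-T9 did not overlap either, at 11.6 to 12.5 against 12.7 to 14.1 CPM, a log2 fold change of 0.16 (p = 0.284 by edgeR, exact permutation p = 0.1). The remaining 7 tested genes (H2-K2, H2-Q1, H2-Q2, H2-T10, H2-T22, H2-Bl and H2-M3) overlapped between groups. H2-Q6 and H2-Q10 did not overlap but had 10 or fewer counts in every mouse and were not tested. H2-Q5, H2-M5 and H2-M10.2 overlapped and were below the filter too, with 12 or fewer counts in every mouse. Summed over all 32 heavy chain genes in the table, the level was 231, 208 and 195 CPM in the controls and 241, 217 and 317 CPM in the MitoParks, a log2 fold change of 0.29 (SE 0.15, p = 0.0811 by edgeR, exact permutation p = 0.2).

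**Figure D3:**
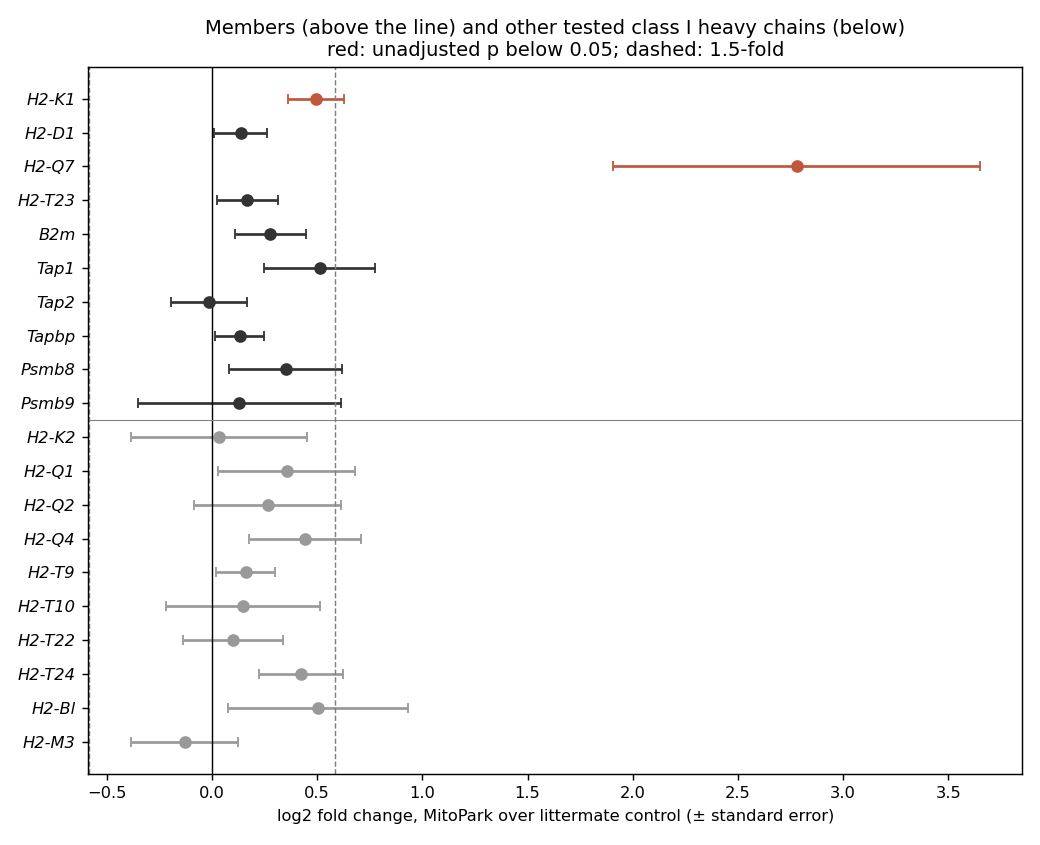
Fitted log2 fold change (± standard error) of MitoParks over littermate controls for the 10 members and the 10 other class I heavy chains that were tested. H2-K1 (0.49) and H2-Q7 (2.78) are in red for an unadjusted p below 0.05 and the dashed line marks 1.5-fold. The other points lie between -0.13 (H2-M3) and 0.51 (Tap1), left of that line.

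B2m encodes beta-2-microglobulin, the light chain that every class I heavy chain needs to reach the surface. It measured 67.8, 82.7 and 94.8 CPM in the controls and 77.6, 104 and 116 CPM in the MitoParks. Both groups spread widely, and MitoPark 1 lay below controls 2 and 3. The log2 fold change was 0.28 (SE 0.17, p = 0.136 by edgeR, exact permutation p = 0.3). The unadjusted edgeR p of B2m was 0.0213 without MitoPark 1 and 0.0457 without control 3, with log2 fold changes of 0.43 and 0.40, under the 1.5-fold cutoff.

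Tap1 and Tap2, the subunits of the transporter, did not show the same pattern by mouse. Tap1 measured 4.01, 2.66 and 3.81 CPM in the controls and 5.12, 4.04 and 5.78 CPM in the MitoParks. The groups did not overlap, though MitoPark 2 exceeded control 1 by little, and the counts were 28 to 39 in controls and 40 to 51 in MitoParks. Its log2 fold change was 0.51 (SE 0.26, p = 0.0826 by edgeR, exact permutation p = 0.1), a 1.43-fold difference. Tap2 measured 14.6, 9.97 and 11.7 CPM in the controls and 10.8, 12.5 and 12.5 CPM in the MitoParks. Control 1 was the highest mouse and control 2 the lowest, and the log2 fold change was -0.01 (SE 0.18, p = 0.943 by edgeR, exact permutation p = 1.0). The difference between the fold changes of the subunits was not tested.

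Tapbp measured 36.1, 34.2 and 37 CPM in the controls and 36.8, 37.9 and 42.9 CPM in the MitoParks. MitoPark 1 lay among the controls and the other MitoParks just above them. The log2 fold change was 0.13 (SE 0.12, p = 0.284 by edgeR, exact permutation p = 0.2). Exons of Tap1 and Psmb9 overlap by 212 bases on opposite strands. Antisense genes cover 14.7% of the exon bases of Psmb8, 24.9% of Tapbp and at least 14.1% of Tap2. The libraries mark strand, but whether the counting used it is not given in the sources used here, so reads of these stretches cannot be told apart. Zbtb22 also overlaps 4.11% of the exon bases of Tapbp, on the same strand.

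Psmb8 and Psmb9 encode catalytic subunits that replace Psmb5 and Psmb6 in the immunoproteasome, which cuts more of the peptides that fit class I. Psmb8 measured 3.79, 3.04 and 2.44 CPM in the controls and 3.29, 4.04 and 4.42 CPM in the MitoParks. MitoPark 1 lay below control 1, and the log2 fold change was 0.35 (SE 0.27, p = 0.227 by edgeR, exact permutation p = 0.2). Psmb9 measured 1.45, 0.57 and 0.88 CPM in the controls and 0.853, 0.809 and 1.47 CPM in the MitoParks, from 6 to 13 counts per mouse. The groups spanned nearly the same range, with a log2 fold change of 0.13 (SE 0.48, p = 0.794 by edgeR, exact permutation p = 0.9).

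Psmb8 made up 5.69%, 4.64% and 4.29% of the counts of Psmb8 and Psmb5 together in the controls, and 4.8%, 7.66% and 8.32% in the MitoParks. MitoParks 2 and 3 had the highest shares, and their 95% Wilson intervals, 5.68 to 10.3% and 6.14 to 11.2%, overlapped that of control 1, 4.1 to 7.84%. The mean shares were 4.87 ± 0.726% and 6.92 ± 1.87% (SD, n = 3 each), a difference of 2.05 percentage points (exact permutation p = 0.2, 0.6 after Benjamini-Hochberg adjustment over 3 pairs). The share of Psmb9 in its pair with Psmb6 was 1.23 ± 0.668% in controls and 1.29 ± 0.502% in MitoParks (exact permutation p = 1.0). Psmb10, which replaces Psmb7, was not chosen as a member, and its share was 15.4 ± 0.726% in controls and 15.4 ± 1.31% in MitoParks (exact permutation p = 1.0). Intervals and floors cover counting error only.

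**Figure D4:**
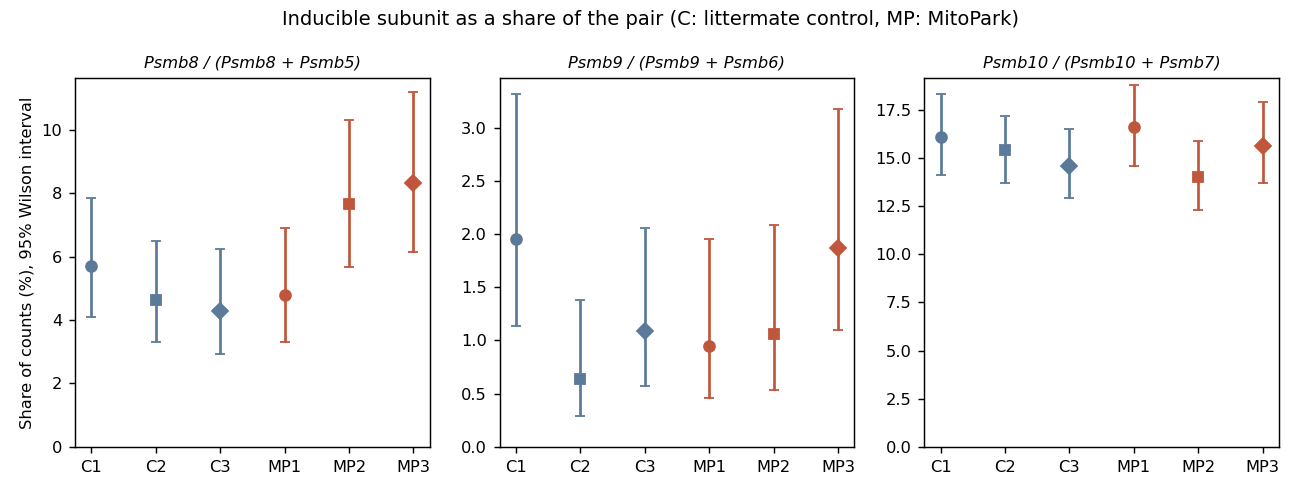
Share of each inducible catalytic subunit in the counts of its inducible and constitutive pair, in percent, with 95% Wilson intervals, for 3 littermate controls (C) and 3 MitoParks (MP). Psmb8 reaches 7.66% and 8.32% in MitoParks 2 and 3, against 4.29 to 5.69% in the controls. MitoPark 1, at 4.8%, lies among the controls, and the shares of every pair overlap between groups.

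Per kilobase of transcript, B2m had the highest level of the members in controls, 95.1 ± 15.7 CPM per kb (SD, n = 3). H2-D1 followed at 26.7 ± 1.58 CPM per kb, then H2-K1 at 15.6 ± 0.833 and H2-T23 at 15 ± 1.44 CPM per kb, which did not differ beyond their spread, then Tapbp at 12.3 ± 0.5 CPM per kb. Tap2 had 3.51 ± 0.677, Psmb8 1.9 ± 0.413, Tap1 1.18 ± 0.247 and Psmb9 0.714 ± 0.329 CPM per kb, and H2-Q7 came last at 0.115 ± 0.11 CPM per kb. The ranges of Tap1 and Psmb9 overlapped, at 0.901 to 1.36 and 0.422 to 1.07 CPM per kb. In the MitoParks the first 5 genes kept this order, with H2-K1 at 22.0 ± 2.91 and H2-T23 at 16.8 ± 2.44 CPM per kb, whose ranges of 20.2 to 25.4 and 14.6 to 19.4 CPM per kb no longer overlapped.

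Among the 6 mice, MitoPark 3 had the highest level for 8 of the 10 members, with H2-Q7 highest in MitoPark 2 and Tap2 in control 1. The share of all genes that were highest in MitoPark 3 was not counted, so this is not shown to be particular to the members. The lowest level fell in control 2 for 5 members, in control 3 for 4 and in control 1 for 1, and in no MitoPark. Over the 6 mice, the 8 genes whose log2 CPM was most like that of the summed heavy chain members, of 10434 genes with 10 or more CPM, were Med19, Whamm, Zc3h11a, Cep164, Zmym6, Zc3h7a, Trit1 and Zfp384. Their Pearson correlations ran from 0.991 to 0.971 over points that share a library, and each of the 8 was highest in MitoPark 3. With so many genes and 6 mice, these correlations are a description only.

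Outside the members, 9 lists named 136 other genes of the pathway, of which 133 were in the table and 92 were tested. Of the 92, 1 had an unadjusted p below 0.05, beside 1.11% of all genes. None of the 92 was past both cutoffs, beside 0.577% of all genes. The lists were thus near the share of all genes. The gene with the p below 0.05 was Mr1, a class I-like molecule that presents vitamin B metabolites, at 10, 10.4 and 8.89 CPM in the controls and 12.2, 15.8 and 12.1 CPM in the MitoParks, a log2 fold change of 0.45 (p = 0.0261 by edgeR, exact permutation p = 0.1). Mr1 did not overlap between groups, and of the 4 class I-like genes tested 2 were higher and 2 lower. By other tests, 2 of the 92 had an unadjusted p below 0.05 with edgeR's likelihood ratio test, 1 with DESeq2 and 2 with limma-voom. Over all 14568 genes these tests gave 142, 96 and 145.

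The 18 other genes of class I assembly, among them the chaperones Calr and Canx and the peptide trimmer Erap1, numbered 5 higher and 13 lower, their median on the log2 scale was -0.01, and 0 had an unadjusted p below 0.05. Calr had a fold change of -0.01 on the log2 scale (p = 0.947 by edgeR, exact permutation p = 1.0), and Tpp2, with the smallest p of the list, had -0.20 (p = 0.249 by edgeR, exact permutation p = 0.4). Of the 3 constitutive proteasome subunits, Psmb5 had a log2 fold change of -0.14 (p = 0.337 by edgeR), Psmb7 of -0.03 (p = 0.761 by edgeR) and Psmb6 of 0.00 (p = 0.998 by edgeR), with exact permutation p-values of 0.4, 0.7 and 0.9. None of these assembly genes passed a cutoff.

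Of 17 regulators of class I transcription, all tested, 13 were higher and 4 lower, beside 48.6% higher over all genes tested. Their median log2 fold change was 0.11, and 0 had an unadjusted p below 0.05. Nlrc5, the class I coactivator, measured 1.56, 1.04 and 0.782 CPM in the controls and 1.22, 1.31 and 2.49 CPM in the MitoParks, with a log2 fold change of 0.58 (SE 0.44, p = 0.218 by edgeR, exact permutation p = 0.4). Only MitoPark 3 lay above all controls. Rfxank, a subunit of the complex that binds the X box, had the smallest p, with a log2 fold change of 0.24 (p = 0.115 by edgeR, exact permutation p = 0.2), and overlapped between groups. The 9 interferon receptor and signalling genes had a median of 0.02 on the log2 scale, with 5 higher and 4 lower, and Ifngr2, a chain of the interferon gamma receptor, had the smallest p at -0.13 (p = 0.347 by edgeR, exact permutation p = 0.4).

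Of 27 interferon-stimulated genes 23 were tested, with 18 higher and 5 lower, beside 48.6% higher over all genes tested. Their median log2 fold change was 0.16, and 0 had an unadjusted p below 0.05. Isg15 (mean 0.853 CPM in controls, 1.22 CPM in MitoParks) and Mx2 (0.811 and 1.08 CPM) reached the filter only through the MitoParks. Their direction is thus no independent result. Gbp4, a guanylate-binding protein, measured 3.23, 1.04 and 3.03 CPM in the controls and 2.8, 3.54 and 10.4 CPM in the MitoParks, a log2 fold change of 1.21 (p = 0.0561 by edgeR, exact permutation p = 0.3). MitoPark 3 was far above the other mice, and MitoPark 1 lay among the controls. Oasl2 measured 4.57, 3.42 and 5.28 CPM against 6.09, 5.76 and 6.92 CPM, without overlap, a log2 fold change of 0.50 (p = 0.0593 by edgeR, exact permutation p = 0.1).

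The 7 tested genes of 12 in the class II pathway were all higher, beside 48.6% of all genes tested. Of these 7, 1 (Ctss) is also a microglia marker. Their median was 0.23 on the log2 scale, and 0 had an unadjusted p below 0.05. H2-Eb1, a class II beta chain, had the smallest p, with a log2 fold change of 0.69 (p = 0.0857 by edgeR, exact permutation p = 0.2). Of 12 class I receptor genes in the table, only Cd160 reached the filter, with a log2 fold change of -0.30 (p = 0.436 by edgeR, exact permutation p = 0.4), and Cd8a had 4 or fewer counts in every mouse.

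Markers of some other cell types were also higher in MitoParks. The 7 perivascular macrophage markers summed to 7.68 to 9.97 CPM in controls and 11.3 to 14.3 CPM in MitoParks, with no overlap, as for H2-K1. All 4 of them that were tested were higher, and 2 were past both cutoffs: Mrc1, the mannose receptor, with a log2 fold change of 0.85 (p = 0.00817 by edgeR, exact permutation p = 0.1) and F13a1, with 0.79 (p = 0.0323 by edgeR, exact permutation p = 0.1). The defining markers Lyve1, Pf4 and Cbr2 each stayed under 2 CPM in every mouse. The part of these cells in the H2-K1 result was not tested.

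The 15 microglia markers summed to 413 to 553 CPM in controls and 526 to 578 CPM in MitoParks, with 13 higher and a median log2 fold change of 0.20. C1qa, a complement subunit, had a log2 fold change of 0.34 (p = 0.031 by edgeR, exact permutation p = 0.1), while Fcrls, also a microglial gene, was past both cutoffs in the other direction at -1.18 (p = 0.0438 by edgeR, exact permutation p = 0.4). The summed microglia level was highest in MitoPark 3, as were 8 of the members, and its part in the members' levels was not tested. Of 12 endothelial markers 3 were higher and 9 lower, with a median of -0.03 and sums of 257 to 401 CPM in controls and 261 to 339 CPM in MitoParks, and Cldn5, a tight junction gene, had the smallest p at a log2 value of 0.28 (p = 0.155 by edgeR, exact permutation p = 0.4).

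T and NK cell markers were near the floor. Of 11 in the table, 9 had 3 or fewer counts in every mouse, Gzmb and Prf1 were at 0 in all, and Cd3d had a single count in 1 control, while the sum of 1.95 to 3.61 CPM in controls and 2.53 to 4.08 CPM in MitoParks came mostly from Lck, which neurons also express. Gfap, the astrocyte filament gene, had a log2 fold change of 0.70 (p = 0.0548 by edgeR, exact permutation p = 0.2), and the 8 astrocyte markers summed to 4230 to 4940 CPM in controls and 4450 to 5030 CPM in MitoParks. The 8 oligodendrocyte markers summed to 7000 to 18500 CPM in controls and 9570 to 15700 CPM in MitoParks, the 10 neuron markers to 6130 to 7390 and 5500 to 7080 CPM, and the 9 red cell and neutrophil markers to 110 to 217 and 175 to 241 CPM. Choroid plexus markers were highest in control 2, at 193 CPM against 29.2 to 65.6 CPM in the other mice.

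**Figure D5:**
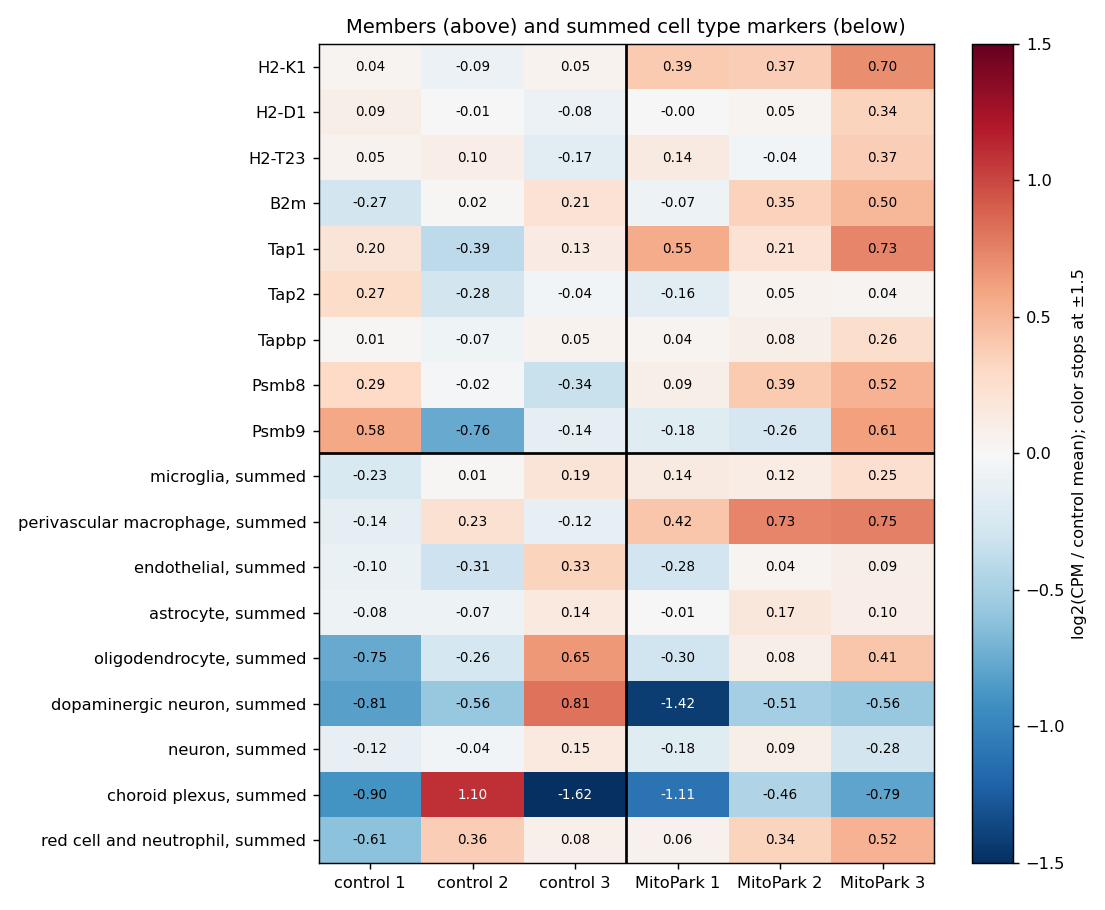
log2 ratio of each mouse to the mean of the 3 littermate controls, for the members other than H2-Q7 (which is at 0 in 1 control) and for summed cell type markers, with color limited to ±1.5. H2-K1 is at 0.37 to 0.70 in the MitoParks, and the perivascular macrophage sum is at 0.42 to 0.75.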

How the data were processed

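Members and lists were chosen with earlier results of these data known. The authors mapped reads to the UCSC transcript set with Bowtie2 2.1.0, estimated reads per gene with RSEM 1.2.15 and deposited the resulting expected counts, which carry no normalization. No mouse genome build is given for this alignment. Another paragraph of the methods describes HISAT2, a RefSeq annotation, RPKM values and a cutoff on an adjusted p, and the deposited table holds no RPKM. The Treat columns were taken as the MitoParks, the only group besides the controls, by number, and 0 columns belonged to no sample. Values with a decimal part made up 11.91% to 14.11% per mouse. RSEM splits reads that fit several genes, which bears on the class I paralogs.

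The expected counts were rounded, filtered (mean above 1 CPM in at least 1 group), TMM-normalized and fitted with edgeR 4.0.16 (quasi-likelihood, groups only) in R 4.3.3, with Benjamini-Hochberg adjustment over 14568 genes. The cutoffs of p below 0.05 and 1.5-fold follow the study's methods, in the paragraph that describes RSEM and edgeR, where p is read as unadjusted. The other paragraph cuts on an adjusted p below 0.05, which 0 genes reached here. Exact two-sided permutation tests used log2(CPM + 0.1). The edgeR quasi-likelihood, likelihood ratio and robust fits, DESeq2 and limma-voom were tested on simulated counts with known changes. The changed genes there did not include genes of low counts. The windows, exon overlaps and motifs were not tested on simulated data. The counts of no pair of mice within a group differed by as little as sampling noise (chi-square per degree of freedom 9.68 or more). No source says how cultures, litters or batches were shared, so p-values measure the spread between these mice.

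The rule named all members, the genes of each other list past both cutoffs or otherwise those with the smallest p (at most 3), the proteasome partners, the other heavy chains with more than 3 counts, Tfam, Th, Slc6a3 and the 8 genes most like the summed heavy chains. Of the marker lists without a gene past both cutoffs, some are given only as sums. C1qa, Calr, Canx, Ctss, Erap1, Nlrc5, Cd8a, H2-L, Psmb10 and the named markers near 0 were named after their values were seen. Transcript lengths, exon overlaps and windows of 150 bases came from GENCODE M21, and promoters from RefSeq (GRCm38.p6), with motifs chosen with the sequences in view. The window length is that of the single-end reads of 150 bases which the methods state.

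Alternatives were RLE and total count normalization, 2 other filters, edgeR's likelihood ratio test and robust dispersion, DESeq2 1.42.0, limma-voom (limma 3.58.1), the replicate number as a block, paralogs summed, shares per kilobase, and each mouse left out. Python 3.11.15, numpy 2.4.6, pandas 2.3.3, scipy 1.17.1 and matplotlib 3.10.9 were used.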

Additional observations from a re-analysis of the deposited data

How the results depend on the processing

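Over 9 alternatives with all mice and 6 with a mouse left out, H2-K1 kept its direction and an unadjusted p below 0.05. The sum of H2-K1, H2-K2, H2-D1 and H2-L, of which H2-D1 is the largest part, was not below 0.05 (0.25, edgeR p 0.0613). The count of members past both cutoffs (1, H2-Q7) was 0 with the filter on the mean over all mice and 0 to 1 with a mouse left out, and H2-Q7 was not past them when summed with its paralogs (0.66). Members without overlap, 3 in the comparison reported, numbered 3 to 6 with a mouse left out (6 without MitoPark 1, 5 without control 1). Leaving out a mouse can only remove overlap for a gene that stays tested. The share over all genes was not counted there, so the rise is no result about the members. Tap2 turned to 0.013 with limma-voom and lay between -0.14 and 0.15 with a mouse left out, and Psmb9 between -0.14 and 0.53 (it was not tested without MitoPark 3). The Psmb9 share difference ran from -0.227 to 0.43 and that of Psmb10 from -0.545 to 0.751 percentage points with a mouse left out. Genes of the other pathway lists past both cutoffs, 0 in the comparison reported, were 2 without a filter, 1 with the likelihood ratio test and 1 with DESeq2 (both Gbp4), and 0 to 3 with a mouse left out.

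Mice of the same replicate number correlated at r = 0.307, -0.074 and 0.244 for numbers 1, 2 and 3. Controls 1 and 3 correlated best with the MitoPark of their own number, and control 2 best with MitoPark 1 (r = 0.112). With so few mice, these values cannot decide whether the numbers pair them. With the replicate block, 1 member and 1 gene of the other lists were past both cutoffs, the unadjusted edgeR p of B2m was 0.0224, and calls over all genes rose from 84 to 126, 1 of them with an adjusted p below 0.05, as 1 gene had with the likelihood ratio test. Without a filter they numbered 176, and 62 to 219 with a mouse left out, 219 without control 3, 217 without MitoPark 2 and 133 without control 1. Depth limits Psmb9 and H2-Q7, with 0 to 21 counts per mouse.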
